A study of Rattus norvegicus with 16 samples.

Results

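The comparison described here is the interaction of cell line and medium pH in a co-culture of rat kidney cells, that is, the difference between the response of NRK-52E cells to pH 6.0 and the response of NRK-49F cells to the same medium. It takes in every library of the series, 16 of 16, with 4 libraries in each of 4 groups, in a single model over all genes. NRK-52E is an epithelial line from normal rat kidney with features of the proximal tubule and was grown on permeable filter inserts, while NRK-49F, of fibroblast type and from the same organ, was grown in the wells beneath. Both lines were held together for 24 h without serum and then for 48 h at pH 7.4 or pH 6.0, which the labels write as pH 7 and pH 6, so the 4 groups share the co-culture, the serum-free medium and the duration. They differ in pH and in line, and with line in support and compartment, which the interaction cannot separate from it. Each library holds poly(A)-enriched RNA of 1 line, and the counts per library lay between 16201084 and 34784862 fragments. Libraries are called N1, N2, N5 and N6 (NRK-52E, pH 7.4), N3, N4, N7 and N8 (NRK-52E, pH 6.0), N9, N10, N13 and N14 (NRK-49F, pH 7.4) and N11, N12, N15 and N16 (NRK-49F, pH 6.0), and values in sentences follow this order. Nothing in the labels says that the libraries of a group came from separate cultures, so the p-values measure only the spread between these libraries. Which NRK-52E and NRK-49F libraries shared a well is not known either, and the model treats all 16 as independent, so the standard errors of the interaction take no account of such pairs.

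In the kidney, tubule cells reabsorb bicarbonate and excrete acid, while the fibroblasts between the tubules produce most of the supporting matrix, and both cell types are exposed to a lower pH when acid is retained. Cells register extracellular acid through proton-sensing receptors, ion channels and changes of their own internal pH, and the genes that follow belong to stress, growth, metabolic and matrix programmes that are active in many cell types. An interaction shows where the same medium went with unlike responses. A gene can move in opposite directions in the lines, move in the same direction by unequal amounts, move in 1 line, or respond alike in both.

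The identity of the lines was checked first. In NRK-49F, the fibroblast genes Pdgfra, Col1a1 and Prrx1 stood at 395, 6260 and 65.5 FPM at pH 7.4 and at 367, 8280 and 82.0 FPM at pH 6.0, where FPM is the fragment count relative to the scaled library size. In NRK-52E the same genes stood at 0.289, 23.8 and 0.0103 FPM at pH 7.4 and at 0.056, 17.8 and 0 FPM at pH 6.0. Fibroblast defining markers were therefore near 0 in the NRK-52E libraries for Pdgfra and Prrx1, but Col3a1, also on the fibroblast list, was higher in NRK-52E than in NRK-49F, at 6270 against 462 FPM at pH 7.4. The epithelial markers went against the label of NRK-52E for the most part. Epcam, Krt18, Cldn4, Cldn7, Cdh16, Pax8 and Esrp1 had group means of 0 to 0.134 FPM in NRK-52E, Cdh1 went from 1.63 FPM at the higher pH to 0.31 FPM, and Krt8 from 434 to 311 FPM. Krt8 was also present in NRK-49F, at 855 and 206 FPM, and the fibroblast marker Thy1 had no count in any library. The lines are therefore called by their names below.

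The summed level of the 12 epithelial markers had medians of 444 and 306 FPM in NRK-52E at pH 7.4 and 6.0 and of 841 and 206 FPM in NRK-49F, with Krt8 the most abundant. The 12 fibroblast markers summed to medians of 7070 and 3040 FPM in NRK-52E, led by Col3a1, and of 16900 and 12300 FPM in NRK-49F, led by Vim at pH 7.4 and by Col1a1 at pH 6.0. Of the markers tested, 1 of 5 epithelial genes had a positive and 2 a negative interaction (median -1.08, or -0.183 with genes that have an empty group at their bound), and 1 of 10 fibroblast genes a positive and 2 a negative one (median -0.16, or 0.498 with such bounds). There was 1 negative epithelial gene in 14 of the 16 fits without 1 library, all but those without N1 or N15, and without N16 there were 2 positive and 1 negative fibroblast genes, with 1 negative also without N7. The macrophage genes Ptprc and Adgre1 and the endothelial genes Kdr and Emcn had no count in any library. Of 3 macrophage genes tested, Cd14 had a positive and Cd68 a negative interaction (median 0.964), with sums of 80.9, 68.8, 363 and 372 FPM in the 4 groups, and of 2 endothelial genes tested, Vwf had a positive one, called in 6 of the 16 fits without 1 library, and Tek a negative one (median -0.363), with sums of 43.8, 7.9, 7.96 and 3.41 FPM. The part of these markers in the results was not tested. In bulk libraries fewer cells of a type and less RNA per cell cannot be told apart.

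Across all genes, the lines often responded unlike each other. Of 14679 genes tested, 5428 (37.0%) had an interaction at a false discovery rate below 0.01 in edgeR's quasi-likelihood test with Benjamini-Hochberg adjustment. The interaction is the log2 fold change of NRK-52E from pH 7.4 to pH 6.0 minus that of NRK-49F, so a positive value means a response that was more positive in NRK-52E. Positive values were called for 2841 genes (19.4% of those tested) and negative values for 2587 (17.6%). In the same model, the pH effect itself was called for 57.7% of genes in NRK-52E and for 35.5% in NRK-49F, and the median absolute log2 fold change over all genes tested was 0.718 in NRK-52E against 0.445 in NRK-49F. Among the called genes the median absolute interaction was 1.19, with 3398 genes at 1 or more, 1181 at 2 or more and 485 at 3 or more. Negative interactions had a median of -1.43 and positive ones of 1.04.

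The called genes divided into classes by what happened in each line. Opposite directions, with the pH effect of each line called as well, were found for 626 genes (4.26% of those tested), 319 with a rise in NRK-52E against a fall in the other line and 307 the reverse. The same direction with unequal size was found for 828 genes, and for 683 of these the larger change was that of NRK-52E. Another 3785 genes changed in 1 line, 2935 of them in NRK-52E, 850 in NRK-49F, while in 2226 of the 3785 the estimate of the other line had the opposite sign without passing the test. The remaining 189 genes had an interaction with neither pH effect called.

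**Figure D1:**
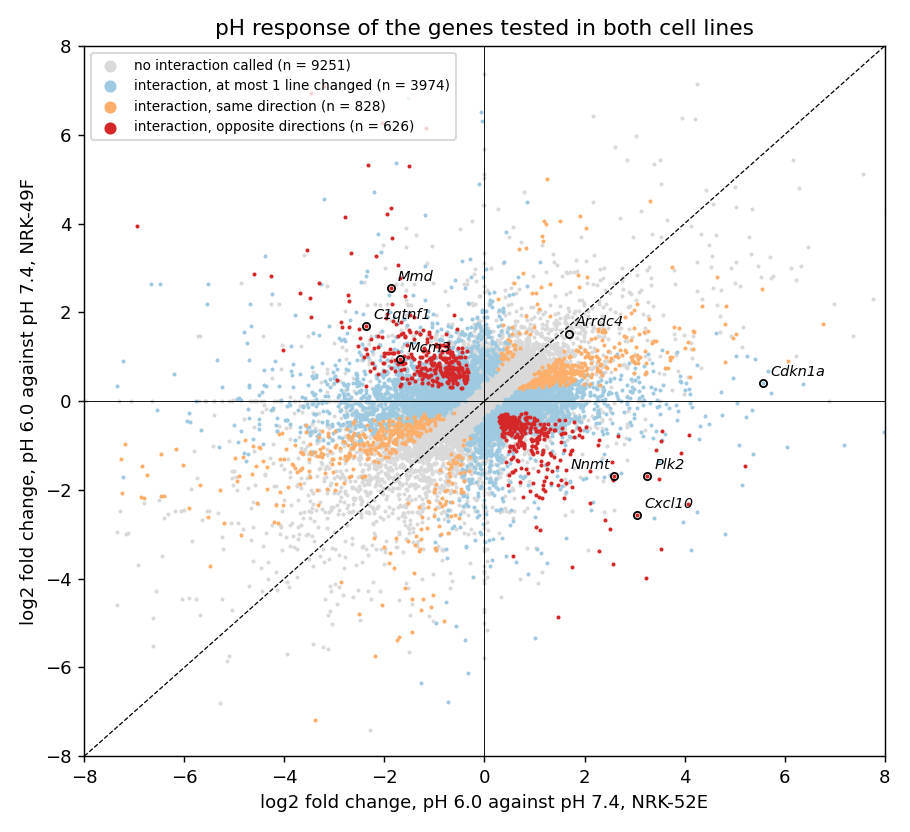
Each point is 1 of the genes tested, with the log2 fold change from pH 7.4 to pH 6.0 in NRK-52E on the horizontal axis and in NRK-49F on the vertical axis, colour giving the class of interaction and the dashed line marking equal responses. The 626 genes of opposite direction fill the upper left and lower right fields, and 11 genes lie outside the axes, which end at 8.

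The scaling of the libraries bears on the sign of small interactions. The median interaction over all genes was -0.0135 with TMM scaling, -0.248 with library totals and -0.123 with protein-coding genes only, and the share of calls that were positive was 52.3%, 33.7% and 43.3% in turn, so the more frequent direction depended on the scaling. Leaving out N3 moved the median to -0.116 and the positive share to 42.4%. Small interactions are therefore described below by counts beside these values.

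The 4 genes given for this comparison, Nnmt, Plk2, Mmd and C1qtnf1, all moved in opposite directions in the lines. Nnmt (ENSRNOG00000005930, chromosome 8) encodes nicotinamide N-methyltransferase, which methylates nicotinamide. In NRK-52E it read 2.87, 2.89, 3.02 and 2.58 FPM at pH 7.4 and 19.0, 16.8, 17.9 and 14.7 FPM at pH 6.0. In NRK-49F it read 16.9, 20.1, 22 and 21.5 FPM at pH 7.4 and 7.34, 6.69, 5.71 and 5.12 FPM at pH 6.0. The pH groups did not overlap in either line, and the line with the lower level at pH 7.4 had the higher level at pH 6.0. The interaction was 4.28 with a standard error of 0.217, and its 95% interval ran from 3.83 to 4.74.

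Plk2 (ENSRNOG00000011951, chromosome 2) encodes a polo-like kinase induced by stress and growth signals. In NRK-52E it stood at 26.6, 25.6, 19.6 and 22.9 FPM at pH 7.4 and at 258, 262, 259 and 122 FPM at pH 6.0. In NRK-49F it stood at 69.1, 63.9, 68.7 and 63.3 FPM at pH 7.4 and at 23.3, 17.2, 22.6 and 18.9 FPM at pH 6.0. N8 was far below the other 3 NRK-52E libraries at pH 6.0 but still above every library at pH 7.4, and no groups overlapped within a line. The interaction was 4.94 with a standard error of 0.272, and it lay between 4.76 and 5.14 when any 1 library was left out.

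Mmd (ENSRNOG00000002436, chromosome 10) encodes a membrane protein first described in the differentiation of monocytes to macrophages. Its levels in NRK-52E were 109, 107, 110 and 114 FPM at pH 7.4 and 27.0, 27.1, 24.0 and 41.4 FPM at pH 6.0. In NRK-49F they were 87.2, 87.9, 121 and 108 FPM at pH 7.4 and 346, 382, 737 and 897 FPM at pH 6.0. The lines overlapped at pH 7.4 and were far apart at pH 6.0, and N15 and N16 were higher than N11 and N12, which have the other second number in their labels. The interaction was -4.43 with a standard error of 0.353.

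C1qtnf1 (ENSRNOG00000003259, chromosome 10) encodes a secreted protein with a C1q-like domain. NRK-52E had 158, 138, 129 and 147 FPM at pH 7.4 and 25.3, 22.3, 24.6 and 39.4 FPM at pH 6.0. NRK-49F had 31.9, 29.4, 23.1 and 23.9 FPM at pH 7.4 and 72.2, 70.4, 107 and 100 FPM at pH 6.0. The lines exchanged places between the media, and the pH groups of each line were separate. The interaction was -4.06 with a standard error of 0.251.

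Membership of the opposite class requires a called pH effect in each line, which by itself favours pH groups that do not overlap. In 551 of the 626 the libraries at pH 6.0 did not overlap those at pH 7.4 in either line. That count is therefore no separate result, and the share over all genes was not taken. A group mean of at least 1 FPM in each line was reached by 586, 307 of them higher and 279 lower at pH 6.0 in NRK-52E. The median absolute interaction of the class was 1.75. Opposite direction was kept in all 16 fits that left out 1 library for 334 genes (53.4%), and the others lost it in at least 1 fit.

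Among the opposite genes that were higher at pH 6.0 in NRK-52E, ranked by the smaller of the changes in the lines, were Cxcl10, Patz1 and Hacd4 beside Nnmt and Plk2. Cxcl10, a chemokine that attracts T cells, read 0.377, 0.289, 0.336 and 0.526 FPM at pH 7.4 and 4.90, 3.68, 2.29 and 1.96 FPM at pH 6.0 in NRK-52E. NRK-49F gave 57.9, 57.7, 58.5 and 50.4 FPM at pH 7.4 and had a mean of 9.44 FPM at pH 6.0, with no overlap. Its level was lower in every NRK-52E library than in every NRK-49F library, and the distance between the lines shrank at pH 6.0. The interaction of Cxcl10 was 5.61 with a standard error of 0.401.

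Patz1, a zinc finger transcription regulator, had means of 0.136 and 0.818 FPM at pH 7.4 and 6.0 in NRK-52E and of 15.8 and 4.58 FPM in NRK-49F, with an interaction of 4.34. Hacd4, an enzyme of the elongation of very long-chain fatty acids, rose 3.08-fold in NRK-52E, from 13.1 to 40.2 FPM, and fell to 0.34 times its level in NRK-49F, from 6.93 to 2.35 FPM. Enpp2, which makes the signalling lipid lysophosphatidic acid, had means of 0.0685 and 0.872 FPM in NRK-52E and 44.4 and 4.22 FPM in NRK-49F. The rise of Enpp2 in NRK-52E rests on few counts and passed the threshold in 6 of the 16 fits without 1 library, failing without N1, N2, N3, N4, N5, N6, N8, N13, N14 or N15, while its interaction was called in all 16. With library totals the rise did not pass either.

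The reverse kind, lower at pH 6.0 in NRK-52E and higher in NRK-49F, was led in the same ranking by Krt15, Celsr1, Mroh2a, Mmd, Fblim1 and Cdh17. Fblim1, which links filamin to cell-matrix adhesions, fell from 33.1 to 8.44 FPM in NRK-52E but went up from 6.78 to 24.9 FPM in the other line. Mroh2a fell from 9.35 to 0.868 FPM in NRK-52E and rose from 2.96 to 11.1 FPM in NRK-49F, with an interaction of -5.37. Cdh17, a cadherin of intestinal and other epithelia, rose 8.32-fold in NRK-49F, from 2.66 to 22 FPM, and fell in NRK-52E from 1.18 to 0.352 FPM. Krt15, a keratin of basal epithelial cells, stood at 5.08, 4.65, 4.10 and 4.74 FPM in NRK-49F at pH 7.4 and at 5.12, 10.3, 37.9 and 63.0 FPM at pH 6.0, so that N15 and N16 carried most of the rise. Krt15 stood at 1.2 and 0.109 FPM in NRK-52E, and without N3, N7 or N8 its opposite direction was no longer called. Celsr1, a cadherin of planar cell polarity, stood at 74.0 and 17.8 FPM in NRK-52E and had no count in NRK-49F at pH 7.4 against 0.462 FPM at pH 6.0, and its opposite direction was not called without N14.

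**Figure D2:**
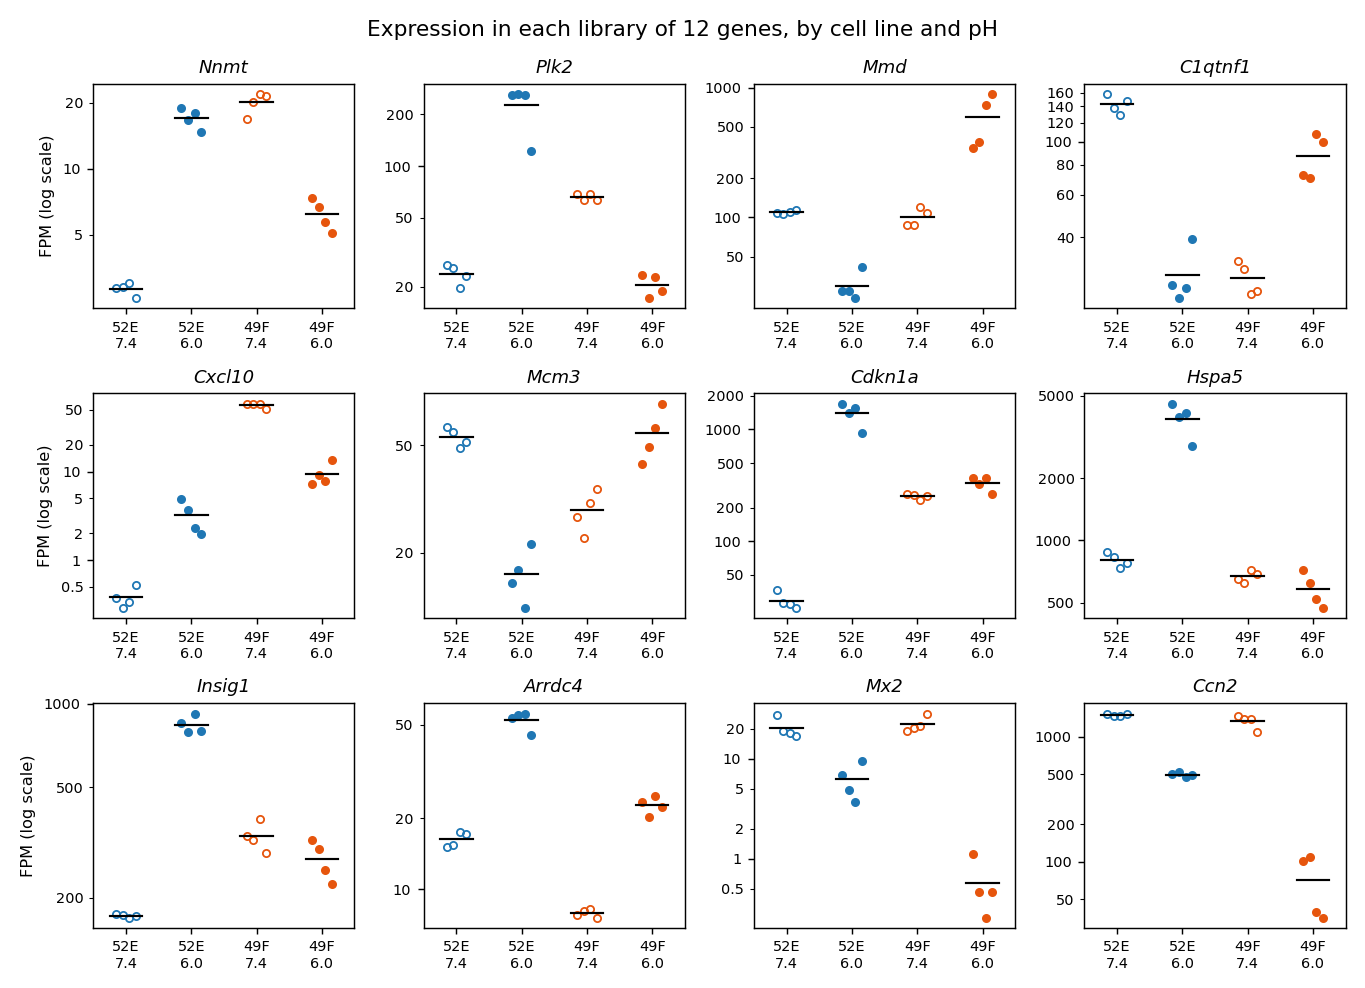
FPM on a log scale in each of the 16 libraries for 12 genes, with 4 libraries for each line (blue NRK-52E, orange NRK-49F) and pH (open 7.4, filled 6.0) and a bar at each group mean. Nnmt, Plk2, Mmd, C1qtnf1, Cxcl10 and Mcm3 moved in opposite directions, Cdkn1a, Hspa5 and Insig1 rose in NRK-52E alone by the test, Mx2 and Ccn2 fell more in NRK-49F, and Arrdc4 rose alike in both, from 16.3 to 52.3 and from 7.94 to 22.7 FPM.

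Genes with the same direction and unequal size mostly responded more in NRK-52E. Higher expression at pH 6.0 in both lines was larger in NRK-52E for 352 genes and larger in NRK-49F for 55, and lower expression in both was larger in NRK-52E for 331 and in NRK-49F for 90. Ifi27l2b, an interferon-inducible gene, read 1.65, 1.74, 0.965 and 0.861 FPM at pH 7.4 and 168, 116, 135 and 151 FPM at pH 6.0 in NRK-52E, against 26.0, 23.4, 30.7 and 28.0 FPM and then 112, 119, 77.8 and 49.9 FPM in NRK-49F. Both lines were separate by pH, and the 109-fold rise in NRK-52E against the 3.31-fold rise in NRK-49F gave an interaction of 5.04 with a standard error of 0.352. Fitm1, a protein of lipid droplet formation, rose from 0.0105 to 13 FPM in NRK-52E, in NRK-49F it went from 0.0372 to 0.242 FPM, and Kif21b, a kinesin motor, from 0.0105 to 1.12 FPM and from 8.5 to 15.9 FPM. For Fitm1 and Kif21b the lower groups hold so few counts that no fold is given, and the class of Fitm1 was another one without N14 or N15 and with DESeq2, and that of Kif21b without N11.

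Larger rises in NRK-49F were those of Haus8, Depp1 and Slc22a12. Haus8, a subunit of the augmin complex of the mitotic spindle, rose 10.8-fold in NRK-49F, from 11.8 to 127 FPM, and 1.61-fold in NRK-52E, from 9.71 to 15.7 FPM. The 4 NRK-49F libraries at pH 6.0 lay between 113 and 139 FPM and all other libraries between 7.35 and 18.1 FPM. Depp1, a gene induced by FOXO factors, rose 15.8-fold in NRK-49F, from 0.333 to 5.27 FPM, and 2.34-fold in NRK-52E, where it began at 6.17 FPM. Slc22a12, the urate transporter of the proximal tubule, stood at 4.78 and 11.4 FPM in NRK-52E and at 0.0582 and 2.24 FPM in NRK-49F, where the libraries at pH 7.4 hold almost no counts.

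Lower expression in both lines was far larger in NRK-52E for Il33 and Card10. Il33, an alarmin of the interleukin-1 family, read 18.4, 19.4, 24.3 and 26.9 FPM at pH 7.4 and 0.306, 0, 0.0401 and 0.466 FPM at pH 6.0 in NRK-52E. In NRK-49F it read 752, 689, 676 and 675 FPM and then 243, 267, 230 and 280 FPM. It was thus near 0 in every NRK-52E library at pH 6.0 and kept 0.365 times its level in NRK-49F. Card10, an adaptor of NF-kappaB signalling, fell from 4.61 to 0.0454 FPM in NRK-52E and in NRK-49F from 86.6 to 37.7 FPM, and Maf, a bZIP transcription factor, stood at 0.861 and 0 FPM and at 27.8 and 11.2 FPM. The larger fall was in NRK-49F for Pou2f2, a POU family transcription factor, which went from 2.31 to 0.0486 FPM there and from 11.1 to 3.31 FPM in NRK-52E. Nkain4 stood at 12.6 and 4.58 FPM in NRK-52E and at 0.589 and 0.00807 FPM in NRK-49F, with an interaction that was not called without N16. Rhbdl3 stood at 147 and 84.3 FPM in NRK-52E and at 0.181 and 0 FPM in NRK-49F, and its interaction was called in 3 of the 16 fits without 1 library, those without N3, N10 or N14, and not with library totals.

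Genes that changed in 1 line by the test were more numerous in NRK-52E, with 1535 higher and 1400 lower at pH 6.0, than in NRK-49F, with 400 higher and 450 lower. Cdkn1a, which inhibits cyclin-dependent kinases, read 36.7, 27.8, 27.5 and 25.4 FPM at pH 7.4 and 1700, 1400, 1540 and 928 FPM at pH 6.0 in NRK-52E. The NRK-49F values were 265, 257, 233 and 252 FPM and then 371, 325, 367 and 263 FPM. NRK-52E was about an order of magnitude below NRK-49F at pH 7.4 and above every NRK-49F library at pH 6.0. The rise in NRK-52E was 47.5-fold and the interaction 5.17 with a standard error of 0.239. Eng, a co-receptor of TGF-beta ligands, rose in NRK-52E from 0.194 to 7.63 FPM and stood at 192 and 151 FPM in NRK-49F, and Marveld1 had no count in NRK-52E at pH 7.4, 0.441 FPM at pH 6.0, and 148 and 193 FPM in NRK-49F.

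Falls in NRK-52E alone included those of Lpar1, a receptor of lysophosphatidic acid, from 0.908 FPM to no count in any library against 43.4 and 55.1 FPM in NRK-49F, and of Col6a6 and Syce1, both near 0 in NRK-49F. Col6a6, a collagen VI chain, fell from 11.9 to 0.429 FPM in NRK-52E and Syce1, a component of the meiotic synaptonemal complex, from 17.9 to 5.25 FPM. In NRK-49F alone, Slc47a1, a proton-coupled exporter of organic cations, rose 7.0-fold, from 2.61 to 18.4 FPM, and Erfe, a hormone that lowers hepcidin, rose 8.19-fold, from 2.07 to 17.6 FPM. Both were below 0.3 FPM in every NRK-52E library. The class of Syce1 was another one without N3 or N8 and with DESeq2, and that of Slc47a1 without N1 or N14 and with library totals. Olfm2, an extracellular olfactomedin protein, lay between 10.9 and 12.6 FPM at pH 7.4 in NRK-49F and at 0.534, 1.06, 0.774 and 0.78 FPM at pH 6.0, against means of 38.5 and 32.7 FPM in NRK-52E. Dync1i1, a dynein intermediate chain, had no count in NRK-49F at pH 6.0 after 0.389 FPM at pH 7.4, with 9.93 FPM in NRK-52E at pH 6.0. Cd24 stood at 195 and 477 FPM in NRK-49F and Ccdc8 at 32.1 and 17.7 FPM, both near 0 in NRK-52E. The interaction of Cd24 was not called without N1, N4, N6 or N8, and that of Ccdc8 without N1, N2, N4, N5 or N6. Ccdc8 fell in NRK-49F alone by the test but held that class only without N7 or N13 among the 16 fits, with no line called with library totals and an opposite direction with DESeq2.

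Like responses were measured too. Both pH effects were called with the same sign and no interaction for 1941 genes, and in 426 of these, 238 higher and 188 lower at pH 6.0, the 95% interval of the interaction lay within 0.5 of 0 on the log2 scale. Cat, the catalase that breaks down hydrogen peroxide, rose 2.85-fold in NRK-52E, from 75.4 to 215 FPM, and 3.01-fold in NRK-49F, from 158 to 477 FPM, with an interval of the interaction from -0.31 to 0.15. Arrdc4, an arrestin-related protein, and Abhd18 rose by like amounts as well, with intervals from -0.16 to 0.48 and from -0.37 to 0.48. Slc2a5, the fructose transporter, fell to 0.285 times its level in NRK-52E and to 0.289 times in NRK-49F, and Prr13 and Lrrc49 had folds of 0.286 and 0.296 and of 0.306 and 0.308.

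The interaction can bring the levels of the lines together or move them apart. Among the 5428 called genes, the ratio of the lines was nearer to 1 at pH 6.0 for 1128 and farther from it for 1862, and in 2438 the line with the higher mean was not the same at the 2 pH values. An exchange with at least a 2-fold difference at each pH was found for 49 genes, 25 of them lower in NRK-52E at pH 7.4, and Nnmt, Plk2 and C1qtnf1 were among them. Of the opposite genes, 100 came nearer, 182 moved apart and 344 exchanged order. An interaction on the log2 scale need not hold in FPM, and its sign in FPM was the other one for 263 called genes, 185 of unequal size and 78 of change in 1 line.

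Gene functions were compared through 38 lists of pathway members, each read against the values for all genes tested, where 19.4% had a positive and 17.6% a negative interaction and the median was -0.0135. A rise was called for 28.2% and a fall for 29.5% of all genes in NRK-52E, against 17.1% and 18.4% in NRK-49F. The lists describe where called genes lay and carry no test of their own. Where a member had a group without any count, the median was also taken with its change set at the bound that 3 counts per library allow, which over all genes gave -0.00128, and this second median is given as the bounded median where it differs. Counts of 0 or 1 also moved by 1 in single fits for the lists of folding (N4 left out), tRNA synthetases (N8), DNA replication and mitosis (N16), MAP kinase feedback (N4) and the proteasome (N3). With library totals the negative count was 1 instead of 0 for folding, tRNA synthetases and the proteasome, and 2 instead of 1 for contractile genes, YAP targets, MAP kinase feedback, autophagy and the respiratory chain.

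**Figure D3:**
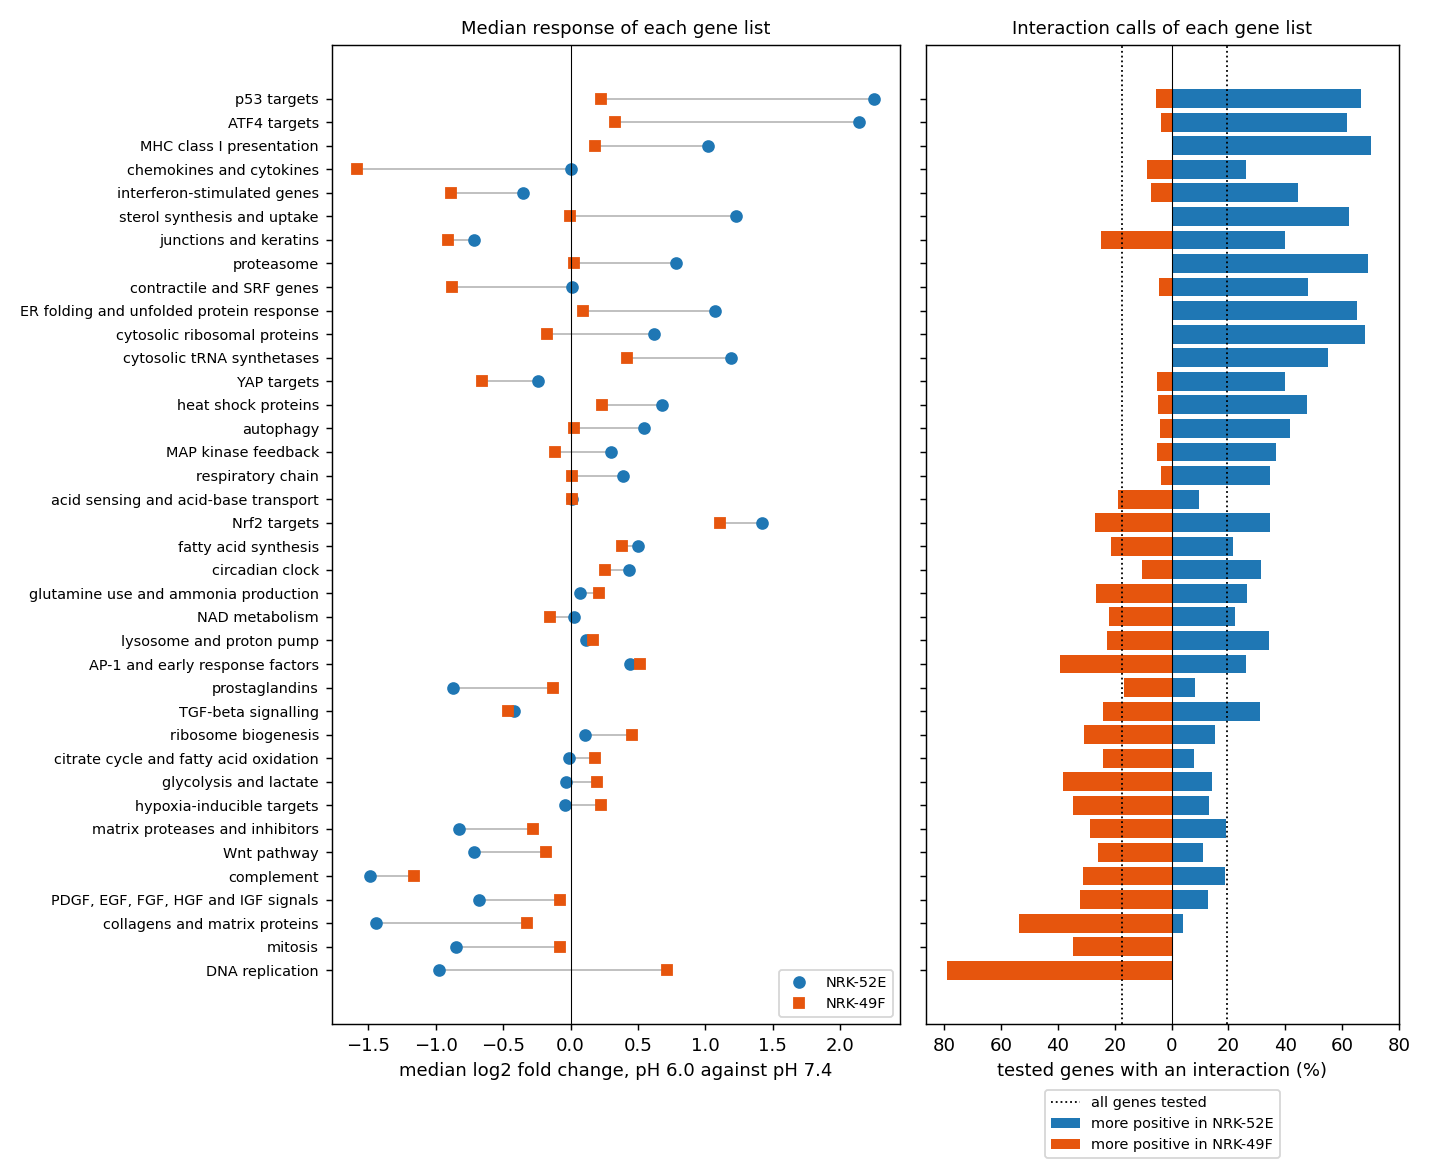
The left panel gives the median log2 fold change from pH 7.4 to pH 6.0 of each of 38 gene lists in NRK-52E (circles) and NRK-49F (squares), and the right panel the percentage of tested members with a positive (blue, right) or negative (orange, left) interaction, with dotted lines at the 19.4% and 17.6% of all genes. The p53 and ATF4 lists had medians of 2.25 and 2.14 in NRK-52E against 0.226 and 0.328 in NRK-49F, DNA replication had -0.974 against 0.713, and the median interactions of fatty acid synthesis (0.171), circadian clock (0.168), NAD metabolism (0.0687) and glutamine use (0.0873) were below 0 with library totals.

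DNA replication genes license, unwind and copy DNA. Of 24 tested, 19 had a negative and 0 a positive interaction, with a median of -1.59, and the median change was -0.974 in NRK-52E against 0.713 in NRK-49F. The pH effect was called as a fall for 16 in NRK-52E and as a rise for 12 in NRK-49F, 7 members were of opposite direction, and 8 changed in NRK-52E and 3 in NRK-49F alone by the test. Mcm3, a subunit of the replicative helicase, read 58.4, 56.0, 48.6 and 51.5 FPM at pH 7.4 and had a mean of 16.7 FPM with a highest value of 21.6 FPM at pH 6.0 in NRK-52E. NRK-49F gave 27.1, 22.6, 30.6 and 34.5 FPM and then 42.5, 49.1, 58.0 and 71.1 FPM. The highest NRK-52E library at pH 6.0 was thus below the lowest NRK-49F library at either pH. The 7 members of opposite direction were the helicase subunits Mcm2, Mcm3, Mcm5 and Mcm6, the polymerase Pole, the primase Prim1 and the ribonucleotide reductase Rrm1, and Mcm2, Mcm3, Mcm5 and Rrm1 were so in all 16 fits without 1 library, against 12 fits for Mcm6, 13 for Pole and 8 for Prim1.

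Of 23 mitosis genes tested, 8 (34.8%) had a negative and 0 a positive interaction, with a median of -1.0. The negative count was 12 with library totals, 10 with protein-coding genes or DESeq2 and 15 at an FDR of 0.05, and 13 fell in NRK-52E against 2 in NRK-49F. Mki67, a marker of cycling cells, fell from 88.4 ± 4.68 to 12.9 ± 5.14 FPM (SD, n = 4) in NRK-52E and stood at 40.6 and 36.9 FPM in NRK-49F, where N16 reached 57.8 FPM and N11 25.8 FPM at pH 6.0. Cenpe, a kinetochore motor, fell from 16.4 to 4.13 FPM in NRK-52E and stood at 9.78 and 9.81 FPM in NRK-49F.

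Targets of p53, the transcription factor of DNA damage and other stress, rose for 13 of 18 in NRK-52E, where 28.2% of all genes rose, and for 4 in NRK-49F, where 17.1% did. Of these 18, 12 had a positive and 1 a negative interaction, with a median of 1.86 and median changes of 2.25 in NRK-52E against 0.226 in NRK-49F. Beside Cdkn1a, Phlda3, an inhibitor of Akt, read 44.8, 34.7, 33.1 and 39.0 FPM at pH 7.4 and 471, 425, 500 and 367 FPM at pH 6.0 in NRK-52E, while NRK-49F had 319, 315, 351 and 323 FPM and then 240, 209, 218 and 158 FPM. The order of the lines was exchanged, and Phlda3 and the death receptor Fas were the 2 members of opposite direction, Fas with 1.32 and 8.41 FPM in NRK-52E and 33.0 and 19.0 FPM in NRK-49F. The negative member was Tigar, a phosphatase that lowers glycolytic flux, with an interaction of -1.04. By the test Tigar changed in NRK-49F alone, but without N8, N9, N10, N12, N13, N15 or N16 it was not in that class, and with library totals or DESeq2 it was of opposite direction.

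Targets of ATF4, the factor that controls amino acid supply under stress, were mostly positive too. Of 26 tested, 16 had a positive and 1 a negative interaction, with a median of 1.67 (bounded median 1.61), and 21 rose in NRK-52E against 12 in NRK-49F. Trib3, a pseudokinase that restrains Akt, rose 27.9-fold in NRK-52E, from 5.87 to 164 FPM, and 3.34-fold in NRK-49F, from 4.51 to 15.4 FPM. Sesn2, a leucine sensor upstream of mTORC1, rose 7.38-fold in NRK-52E and stood at 38.0 and 34.3 FPM in NRK-49F. Psat1, an enzyme of serine synthesis, was the negative member, with 63.1 and 56.9 FPM in NRK-52E and a 3.71-fold rise in NRK-49F.

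Of 23 genes of protein folding in the endoplasmic reticulum, 15 had a positive and 0 a negative interaction, with a median of 0.768. These were 11 and 1 with library totals (median 0.523), 14 and 1 with protein-coding genes and 15 and 1 with DESeq2, and 18 rose in NRK-52E against 2 in NRK-49F. Hspa5, the chaperone BiP, read 878, 835, 732 and 778 FPM at pH 7.4 and 4570, 3930, 4110 and 2860 FPM at pH 6.0 in NRK-52E. In NRK-49F it read 653, 626, 719 and 690 FPM and then 716, 622, 520 and 473 FPM. NRK-52E was separate by pH and NRK-49F overlapped, and the interaction of Hspa5 was 2.47 with a standard error of 0.202. Herpud1 and Sdf2l1, which serve the degradation and folding of proteins in the same compartment, were of opposite direction, Herpud1 with 108 and 258 FPM in NRK-52E and 61.2 and 38.0 FPM in NRK-49F.

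The lists of tRNA synthetases and proteasome subunits shared this direction. The cytosolic tRNA synthetases, which charge tRNAs with amino acids, had 11 positive and 0 negative interactions among 20 tested (median 0.622), or 9 and 1 with library totals, and Gars and Kars had the largest, 1.69 and 1.18. The proteasome subunits had 20 positive and 0 negative among 29 (median 0.798), or 15 and 1 with library totals and 16 and 1 with protein-coding genes, with a rise in NRK-52E for 26 and in NRK-49F for 5. Psmd8, a subunit of the regulatory particle, went up from 90.5 to 339 FPM in NRK-52E and stood at 72.3 and 89.5 FPM in NRK-49F, and Psmb4, of the core particle, had an interaction of 1.24.

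Cytosolic ribosomal proteins had 15 positive and 0 negative interactions among 22 tested, with a median of 0.749. The positive count was 4 without N3 and 7 with library totals, where the median was 0.502. It was 0 with glmTreat against 1. With the libraries of the lower, the higher or the shared second number it was also 0, with medians of 0.594, 0.936 and 0.676. Rpl18, 1 of 2 with the largest interactions, had 511, 444, 341 and 464 FPM and then 1050, 681, 786 and 1130 FPM in NRK-52E, and 833, 886, 1150 and 839 FPM and then 714, 890, 928 and 733 FPM in NRK-49F. Rpl13 had an interaction of 1.15 and Rpl18 of 1.24, and ribosomal protein genes have near-identical copies elsewhere in the genome, which makes their counts uncertain. The genes of ribosome assembly had 4 positive and 8 negative interactions among 26 (median -0.178), with 2 positive without N2 or N3, and 1 positive and 11 negative with library totals. Nat10, an RNA acetyltransferase, fell from 44.7 to 9.72 FPM in NRK-52E and stood at 44.0 and 50.6 FPM in NRK-49F, Utp20 was of opposite direction (interaction -1.25), and Rrn3, an initiation factor of RNA polymerase I, rose more in NRK-52E (1.04).

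Heat shock proteins had 10 positive and 1 negative interaction among 21 (median 0.54), with 2 negative without N3, N8 or N13 and 3 with library totals, and Hspb8, a small heat shock protein, rose 7.92-fold in NRK-52E, from 7.91 to 62.7 FPM, and 1.55-fold in NRK-49F, from 140 to 217 FPM. Hsph1 was the negative member and rose in NRK-49F alone, from 67.1 to 120 FPM, and Hspa1b, with near-identical copies, had an interaction of 3.02. Autophagy genes had 10 positive and 1 negative among 24 (median 0.502), with 6 positive without N3 or with library totals and 0 negative without N2, N7, N10 or N11. Sqstm1, a receptor of selective autophagy, rose 3.31-fold in NRK-52E, from 402 to 1330 FPM, and stood at 1010 and 1050 FPM in NRK-49F, and Atg12 had an interaction of 1.31.

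Lysosomal genes and the proton pump had 12 positive and 8 negative interactions among 35 (median -0.0268), and 7 positive and 14 negative with library totals. Ctsk, a cysteine protease, read 1.55, 2.07, 1.05 and 1.05 FPM at pH 7.4 and 60.2, 45.5, 48.2 and 26.0 FPM at pH 6.0 in NRK-52E, with means of 1.84 and 2.69 FPM in NRK-49F. Its NRK-52E libraries at pH 6.0 stood apart from all 12 others. Neu1, the lysosomal sialidase, fell from 39.4 to 16.4 FPM in NRK-52E and rose from 40.6 to 63.0 FPM in NRK-49F, an opposite direction not called without N9, N10 or N11.

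Sterol synthesis and uptake differed between sets of libraries in the size of the interaction. Of 24 tested, 15 had a positive and 0 a negative interaction, with a median of 0.949, and 20 rose in NRK-52E against 6 in NRK-49F. With the libraries of the lower second number of each line's labels there were 8 positive and 1 negative with a median of 0.548, against 18 and 0 with a median of 1.79 for the higher number. Insig1, the sterol-regulated brake on this pathway, read 175, 173, 170 and 172 FPM at pH 7.4 and 851, 792, 921 and 796 FPM at pH 6.0 in NRK-52E. The NRK-49F values were 334, 323, 384 and 291 FPM and then 324, 300, 253 and 224 FPM. The NRK-52E groups were far apart with little spread, while those of NRK-49F overlapped, and the interaction of Insig1 was 2.56 with a standard error of 0.16. Cyp51, the lanosterol demethylase, went up from 111 to 430 FPM in NRK-52E and stood at 111 and 98.8 FPM in NRK-49F, and its interaction of 2.12 lay between 1.13 and 3.19 over these sets.

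Fatty acid synthesis had 3 positive and 3 negative interactions among 14, with a median of 0.171 that was -0.0658 with library totals, and with 1 negative without N2. Acss2, which makes acetyl-CoA from acetate, and the desaturase Fads2 were of opposite direction. Acss2 rose from 16.8 to 44.8 FPM in NRK-52E while it went down from 29.8 to 19 FPM in the other line, and Fads2 had 65.4 and 98.5 FPM and 64.4 and 30.5 FPM, its rise in NRK-52E not being called with library totals. Elovl5, an elongase, rose in NRK-49F alone, from 36.5 to 108 FPM.

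Glycolysis genes had 3 positive and 8 negative interactions among 21 (median -0.25), where 19.4% and 17.6% of all genes had them. The citrate cycle and fatty acid oxidation had 2 and 6 among 25 (median -0.214). The share called in that second list, 32.0%, was below the 37.0% of all genes. With the lower and the higher second number it had 3 and 1 negative and 0 positive interactions. Glycolysis had 1 positive without N2, N3, N6, N11, N12 or N14 and with library totals or protein-coding genes, and the citrate cycle list had 1 positive without N3 and 1 positive and 10 negative with library totals. Pfkl, a phosphofructokinase, fell from 108 to 31.8 FPM in NRK-52E and stood at 127 and 125 FPM in NRK-49F, while Pfkp, another form of that enzyme, rose from 169 to 347 FPM in NRK-49F and was near 1 FPM in NRK-52E, where a fall was called with library totals or DESeq2. Aldoc, an aldolase, was the reverse, with a rise from 2.55 to 9.41 FPM in NRK-52E. Hadha, of mitochondrial beta-oxidation, rose in NRK-49F alone, from 309 to 572 FPM, and Idh3a, of the citrate cycle, fell in NRK-52E alone, from 48.5 to 33.0 FPM. Hadha was of opposite direction with library totals or DESeq2, as was Idh3a with library totals, and Idh3a was in another class without N8. The respiratory chain had 9 positive and 1 negative among 26 (median 0.381), of which 4 were positive without N3 or with library totals and 0 negative without N6, N13 or N14, and Cox6a1 and Cycs had interactions of 1.47 and 1.15.

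Targets of hypoxia-inducible factors had 3 positive and 8 negative interactions among 23 (median -0.265, bounded median -0.169), with 6 positive without N8. Ca9, a membrane-bound carbonic anhydrase that handles extracellular acid, read 1120, 937, 924 and 942 FPM at pH 7.4 and 255, 245, 240 and 418 FPM at pH 6.0 in NRK-52E. NRK-49F gave 175, 152, 180 and 179 FPM and then 183, 196, 250 and 320 FPM. The fall in NRK-52E left N8 highest of its group, and the interaction was -2.22 with a standard error of 0.253. P4ha1, a collagen prolyl hydroxylase on the same list, rose 2.93-fold in NRK-52E and 1.4-fold in NRK-49F.

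Acid sensing and acid-base transport had 2 positive and 4 negative interactions among 21 of 36 genes tested, with a median of 0.252 that was 0.0128 with library totals. Slc4a7, a sodium bicarbonate cotransporter, rose 6.96-fold in NRK-49F, from 7.33 to 51.3 FPM, and stood at 3.7 and 5.85 FPM in NRK-52E. Bsg and Slc26a6 fell in NRK-49F alone, Bsg, the partner of lactate transporters, from 997 to 563 FPM against 3610 and 3470 FPM in NRK-52E. Glutamine use and ammonia production had 4 positive and 4 negative among 15, with a median of 0.0873 that was -0.156 with library totals and -0.0189 with protein-coding genes. Slc1a4 and Slc1a5, transporters of neutral amino acids, rose more in NRK-52E, 10.4-fold against 2.54-fold and 3.48-fold against 1.42-fold, and Slc25a11, the oxoglutarate carrier, had a negative interaction.

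NAD metabolism, the list that holds Nnmt, had 4 positive and 4 negative interactions among 18, with a median of 0.0687 (bounded median -0.0897) that was -0.174 with library totals and -0.0357 with protein-coding genes. Nudt12, a hydrolase of NAD and NADH, fell from 27.1 to 8.03 FPM in NRK-52E with a fold of 0.803 in NRK-49F that did not pass the test. Circadian clock genes had 6 positive and 2 negative among 19, with a median of 0.168 (bounded median 0.257) that was -0.0734 with library totals, where 3 were positive. No negative interaction was left without N1, N2, N5, N10, N13, N14, N15 or N16, and 1 without any other single library but N3. Ciart, a repressor of the clock, rose 18.2-fold in NRK-52E and 2.94-fold in NRK-49F, and Cry2 was of opposite direction, with 66.9 and 139 FPM in NRK-52E and 105 and 54.9 FPM in NRK-49F.

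Targets of Nrf2, the factor of the oxidative stress response, rose for 19 of 26 in each line, against 28.2% and 17.1% of all genes, and had interactions either way, 9 positive and 7 negative, with a median of 0.245. With library totals these were 7 and 9 with a median of 0.0199, and with protein-coding genes 8 and 8 with a median of 0.138. Ephx1, the microsomal epoxide hydrolase, read 33.9, 28.4, 28.8 and 29.0 FPM at pH 7.4 and 560, 472, 565 and 442 FPM at pH 6.0 in NRK-52E. In NRK-49F it read 32.5, 31.7, 33.0 and 27.9 FPM and then 23.1, 17.2, 19.7 and 13.1 FPM. The lines were level at pH 7.4 and apart in every library at pH 6.0, with an interaction of 4.86 and a standard error of 0.201. Osgin1 rose 27.8-fold in NRK-52E and 1.84-fold in NRK-49F. Ugdh, which makes UDP-glucuronic acid, was of opposite direction the other way, with 53.6 and 33.8 FPM and 129 and 264 FPM, and Gstm1, a glutathione transferase with near-identical relatives, had an interaction of -2.16. Nfe2l2, the gene of Nrf2 itself, had 146 and 274 FPM in NRK-52E and 395 and 307 FPM in NRK-49F, an opposite direction that was not called without N2, N6, N7, N9, N10, N11, N12, N13 or N16. The interaction of Nfe2l2 was 1.27 with a standard error of 0.147 and was called in all 16 fits without 1 library, and that of its inhibitor Keap1 was 0.01 with an interval from -0.31 to 0.32.

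In the edgeR model with TMM scaling, interferon-stimulated genes held the most members of opposite direction among the 38 lists. Of 27 tested, 12 had a positive and 2 a negative interaction, with a median of 0.963, and 12 rose and 8 fell in NRK-52E while 3 rose and 19 fell in NRK-49F. The negative count was 0 without N4, N5, N6, N7, N10, N12 or N13, 1 without N1, N3, N9, N11, N14 or N16, and 4 without N8. The 9 opposite members all rose in NRK-52E and fell in NRK-49F and were Cxcl10, the transcription factors Irf1, Irf7 and Stat2, the ubiquitin-like modifier Isg15, the ligase gene Herc6, and Dtx3l, Ifi44 and Xaf1. Irf7 had 27.2 and 80.4 FPM in NRK-52E and 79.7 and 48.4 FPM in NRK-49F, and Ifi44 had 44.9 and 112 FPM and 79.7 and 34.1 FPM. Dtx3l was of opposite direction in 8 and Herc6 in 4 of the 16 fits without 1 library, and the other 7 in all of them. With library totals neither was, nor was Dtx3l with DESeq2. The DNA replication list, with 7 such members, also held Mcm4 with either of these alternatives, so the ranking of the lists was not kept there. Other interferon-stimulated genes fell in both lines. Mx2, a GTPase against viruses, stood at 27.3, 18.9, 18.3 and 16.9 FPM and then 6.92, 4.87, 3.73 and 9.50 FPM in NRK-52E and at 19.2, 20.4, 21.6 and 28.5 FPM and then 1.11, 0.464, 0.258 and 0.468 FPM in NRK-49F. The lines were level at pH 7.4, and the interaction of 3.61 came from a larger fall in NRK-49F.

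Antigen presentation by MHC class I had 7 positive and 0 negative interactions among 10 (median 1.18), none of them in the class I heavy chain genes, which were not analysed here. Tap1, a subunit of the peptide transporter, rose 10.6-fold in NRK-52E, from 20.5 to 217 FPM, and stood at 98.2 and 119 FPM in NRK-49F, and Psmb8, of the immunoproteasome, rose 5.75-fold from 8.04 to 46.3 FPM and stood at 166 and 190 FPM. Chemokines and cytokines had 6 positive and 2 negative among 23 (median 1.0, bounded median 1.06), of which 3 were positive without N3, N5 or N12 or with library totals. Cxcl1, which attracts neutrophils, was of opposite direction, from 4.06 to 17.6 FPM in NRK-52E with N3 at 34.5 and N8 at 4.75 FPM, and from 70.4 to 23.6 FPM in NRK-49F. Ccl7 rose 9.05-fold in NRK-52E and stood at 66.4 and 62.1 FPM in NRK-49F.

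Complement genes had 3 positive and 5 negative interactions among 16 (median -0.681), or 2 and 9 with library totals and 2 and 7 with protein-coding genes, and fell for the most part in both lines, 11 in NRK-52E and 10 in NRK-49F. C3, the central component, fell in NRK-49F from 29.9 to 3.0 FPM, to 0.0997 times its level, and stood at 49 and 29 FPM in NRK-52E, where a fall was called without N3 or N4 and with library totals or DESeq2, while C4a fell more in NRK-52E, from 44.8 to 3.62 FPM. Prostaglandin genes had 1 positive and 2 negative among 12, with a median of -0.0299 and a bounded median of 0.228, and 2 were positive without N4, N8 or N12. Pla2g4a, the phospholipase that frees arachidonic acid, fell from 17.9 to 3.12 FPM in NRK-52E and stood at 129 and 87.8 FPM in NRK-49F, and Ptges3 rose 2.27-fold in NRK-52E.

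Collagens and matrix proteins were mostly negative. Of 26 tested, 14 had a negative and 1 a positive interaction, with a median of -0.899 (bounded median -0.79), with 3 positive without N11, and 20 fell in NRK-52E against 9 in NRK-49F. Fbln5, which organises elastic fibres, read 245, 233, 243 and 233 FPM at pH 7.4 and 11.1, 22.8, 16.3 and 37.9 FPM at pH 6.0 in NRK-52E. The NRK-49F values were 378, 369, 417 and 412 FPM and then 343, 333, 389 and 474 FPM. Every NRK-52E library at pH 6.0 was below 40 FPM and every other library above 230 FPM. Col3a1, a fibrillar collagen, was the positive member, with a fall from 462 to 53.7 FPM in NRK-49F and a smaller one from 6270 to 2600 FPM in NRK-52E.

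Matrix proteases and their inhibitors had 4 positive and 6 negative interactions among 21, and their median of -0.4 became 0.138 with members at their bound, 5 of them having an empty group. The positive count was 2 with library totals, and also without any 1 of N2, N3, N5, N6, N8, N10, N11, N12, N13, N14 or N15. Serpine2, a protease inhibitor, fell from 56.0 to 5.26 FPM in NRK-52E and stood at 3850 and 3170 FPM in NRK-49F, Mmp19 had an interaction of -2.21, and Adam8, a membrane protease, rose 5.36-fold in NRK-52E, from 20 to 107 FPM.

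Contractile genes and targets of serum response factor fell for 13 in NRK-49F, where 18.4% of all genes fell. In NRK-52E 8 fell, not far from the share of all genes there (29.5%). Of 23 tested, 11 had a positive and 1 a negative interaction, with a median of 0.789 (bounded median 0.71), and 6 were positive and 2 negative with library totals. Tagln2, an actin-binding protein, had 560, 506, 417 and 484 FPM and then 856, 690, 687 and 836 FPM in NRK-52E and 1250, 1190, 1480 and 1460 FPM and then 578, 628, 723 and 841 FPM in NRK-49F. The lines were far apart at pH 7.4 and overlapped at pH 6.0. Tagln2, Csrp1 and Tpm2 were the 3 members of opposite direction, Csrp1 and Tagln2 in all 16 fits without 1 library and Tpm2 in 6 and with neither library totals nor DESeq2, and Tagln, a related smooth muscle gene, was the negative member, with a fall from 173 to 96.8 FPM in NRK-52E and about 1 FPM in NRK-49F.

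Targets of YAP, the co-activator that responds to cell spreading and tension, fell for 11 in NRK-49F, where 18.4% of all genes fell. In NRK-52E 6 fell, near the share of all genes there (29.5%). Of 20 tested, 8 had a positive and 1 a negative interaction, with a median of 0.576, and 5 were positive without N3 and 2 negative without N1, N3, N4 or N12. With library totals or protein-coding genes these were 6 and 2. Ccn2, a secreted matricellular protein of fibrosis, read 1510, 1450, 1460 and 1530 FPM at pH 7.4 and 500, 518, 478 and 493 FPM at pH 6.0 in NRK-52E. NRK-49F gave 1460, 1380, 1380 and 1080 FPM and then 101, 109, 39.6 and 35.8 FPM. The lines were alike at pH 7.4, and all NRK-49F libraries at pH 6.0 were below all others, with an interaction of 2.64 and a standard error of 0.367. Ankrd1, a nuclear ankyrin protein, fell from 1.21 to 0.0497 FPM in NRK-49F, and Fjx1 was the negative member, with a fall from 11.8 to 1.63 FPM in NRK-52E against 72.2 to 34.6 FPM.

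Signalling pathways mixed directions. TGF-beta signalling had 9 positive and 7 negative interactions among 29 (median -0.148), or 8 and 10 with library totals (median -0.389). Id1, a target of BMP signals that blocks differentiation factors, fell from 76.5 to 14 FPM in NRK-49F and stood at 121 and 142 FPM in NRK-52E, while Ltbp3, which binds latent TGF-beta, fell from 1390 to 345 FPM in NRK-52E and stood at 1040 and 924 FPM in NRK-49F. The Wnt pathway had 3 positive and 7 negative among 27 (median -0.646, bounded median -0.547), and of its 5 opposite members the nuclear factor Tcf7, the receptors Fzd6 and Fzd8 and the inhibitor Nkd1 fell in NRK-52E and rose in NRK-49F, whereas the ligand Wnt4 did the reverse. Fzd8 had 10.1 and 2.81 FPM in NRK-52E and 17.7 and 37.7 FPM in NRK-49F, and Wnt4 was of opposite direction in 5 of the 16 fits without 1 library, against all 16 for the other 4, and was not with library totals.

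Growth factors of the PDGF, EGF, FGF, HGF and IGF families and their receptors had 4 positive and 10 negative interactions among 31 (median -0.796, bounded median -0.715). Fgf9, a ligand of epithelial and mesenchymal signalling, fell from 16.1 to 6.05 FPM in NRK-52E and rose from 0.512 to 1.82 FPM in NRK-49F, and Btc, a ligand of the EGF receptor, fell in both and more in NRK-49F, from 12.8 to 0.444 FPM. Feedback genes of MAP kinases had 7 positive and 1 negative among 19 (median 0.416), or 5 and 2 with library totals (median 0.173). Dusp14, a phosphatase, rose from 21.8 to 64.2 FPM in NRK-52E while it went down from 24.2 to 15.7 FPM in the other line, and Dusp5, another one, rose 6.31-fold in NRK-49F and 1.5-fold in NRK-52E, a rise not called with library totals.

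AP-1 and early response factors had 6 positive and 9 negative interactions among 23, with a median of -0.0277. The 4 opposite members split evenly, since Plk2 and the nuclear receptor Nr4a2 rose in NRK-52E and fell in NRK-49F and Myc and Fosl2 did the reverse. Myc, a driver of growth, read 23.0, 22.2, 20.5 and 18.6 FPM and then 17.8, 13.2, 12.4 and 12 FPM in NRK-52E and 19.2, 21.2, 19.9 and 21 FPM and then 101, 81.1, 74.9 and 53.7 FPM in NRK-49F. The lines were level at pH 7.4 and separate at pH 6.0. Without N7 the opposite direction of Myc was not called, and without N10 or N15 that of Nr4a2 was not. Junction and keratin genes had 8 positive and 5 negative among 20 of 32 genes (median 0.852), with 3 negative without N14 or N15, and Krt80, a keratin, fell from 36.4 to 20 FPM in NRK-52E and in NRK-49F from 2.99 to 0.394 FPM.

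Some features of the genes went with the share that was called. Interactions were called for 38.4% of protein-coding genes and 21.5% of lincRNAs tested, for 26.6% of genes on the X chromosome, and for 21.6% of the 3670 least expressed genes against 49.2% of the 3670 most expressed. Promoters from RefSeq, build GRCr8, matched 9967 of the genes tested by symbol, 248 of them opposite with a rise in NRK-52E and 230 opposite with a fall. The motif GAAANNGAA of interferon-stimulated response elements, read on both strands, was in 9.5% of all promoters, 7.19% of those of genes tested, 26 of the 248 promoters of opposite genes that rose in NRK-52E and 6.96% of those that fell there. TGANNNNGC, the core of antioxidant response elements, was in 40.4%, 43.2%, 44.0% and 40.9% in turn.

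The promoter of Cxcl10 is shown because this gene led the interferon-stimulated list and moved in opposite directions. The stretch is chr14:15988816-15989065 on the plus strand of GRCr8, upstream of the gene's start, with capitals marking GAAANNGAA and an overlapping pair of matches to TGANTCA, the AP-1 motif, and to TGANNNNGC on the other strand. A match is a description of letters and not a measured site.
Cxcl10: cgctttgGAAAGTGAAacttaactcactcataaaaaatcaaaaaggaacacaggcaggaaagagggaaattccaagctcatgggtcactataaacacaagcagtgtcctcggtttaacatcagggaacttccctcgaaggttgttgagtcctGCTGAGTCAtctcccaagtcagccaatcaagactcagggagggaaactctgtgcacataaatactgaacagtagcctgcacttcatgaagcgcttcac

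A second number stands in each label, its meaning unknown, and is 21 for N1 to N4 and N13 to N16, 22 for N5 to N8 and 20 for N9 to N12. The interaction was also fitted with 2 libraries a group, with the lower number of each line (21 and 20), the higher (22 and 21) or the number that both have (21). There were 3422 calls with the lower number, 1725 with the higher and 2548 with the same number, of which 50.7%, 55.3% and 45.1% were positive. Of the 5428 genes, 1338 were called with both the lower and the higher number. The other sign was found for 1 of the 5414 genes fitted with the lower, 0 of 5427 with the higher and 0 of 5426 with the same number. Each set is part of the 16 libraries that chose these genes. Like signs were therefore largely fixed in advance and are no replication. List medians of unlike sign with the lower and the higher number were those of fatty acid synthesis (-0.144 and 0.542), matrix proteases (0.317 and -0.544), TGF-beta signalling (0.312 and -0.268), prostaglandins (0.289 and -0.0138), AP-1 (0.0989 and -0.354), acid-base transport (0.259 and -0.0179), lysosome (-0.0246 and 0.0248) and clock genes (0.567 and -0.029). Among the cell type markers the same held for the medians of fibroblast (0.174 and -0.133) and macrophage genes (0.685 and -0.903).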

How the data were processed

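RNA of 16 libraries was analysed from the gene counts that the authors deposited, which are raw fragment counts without normalization. Per the paper the authors mapped read pairs to rn6 with tophat2 and counted fragments with featureCounts over Ensembl genes, those with several map places too, while the sample notes name HISAT2 2.1.0. Of 32623 genes, 22082 had a count and 14679 passed edgeR's filter over the 4 groups. FPM are fragments per 1e6 of the TMM-scaled library size.

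A quasi-likelihood model of edgeR 4.0.16 in R 4.3.3 held 4 groups, with Benjamini-Hochberg adjustment over all genes tested and calls at an FDR below 0.01. The standard error is the absolute log2 value divided by the square root of F, or, for interactions not called, the root of the summed squares of the errors of the lines. Intervals are 95%. The SD given for Mki67 is that of 4 libraries, and other group means are printed without one. Floors of 3 counts per library and all intervals cover counting error or spread between libraries only, at totals of 16201084 to 34784862 fragments.

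Named were Nnmt, Plk2, Mmd and C1qtnf1, Nfe2l2 and Keap1, and, at any level and with or without overlap, the 2 most positive and 2 most negative called members of each list. Other genes needed at least 10 FPM in the highest group and pH groups that did not overlap in a line with a named change. These were per direction the 6 opposite genes whose smaller change was largest, the 3 with the largest interaction of each kind of unequal or 1-line change, the extremes over all genes and the 3 largest like responses each way. Members and lists were chosen with earlier results of these data known. The other opposite members of the DNA replication, p53, folding, interferon, contractile, Wnt and AP-1 lists, and Cd14 and Vwf, were named after their values were seen.

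Alternatives were RLE factors, library totals, no filter, 1 CPM in 4 libraries, DESeq2 1.42.0 alone or with edgeR, FDR 0.05, glmTreat against 1, protein-coding genes, the second number of the labels as covariate or with 1 number at a time, the FPM scale, and each library left out. Genes with near-identical copies have uncertain counts. Monocultures, proteins, gene length and Srxn1, Pgd, Cth, Lbr, Col1a2 and Col6a3 were not analysed here. Some genes that meet these rules are not reported here.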

Additional observations from a re-analysis of the deposited data

Results flagged for a closer look

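Of 60 groups of 4 libraries, those of 15 genes named first, 7 held a library far from the other 3, and chance gives about 1 in 20 groups, or 3. Plk2 in NRK-52E at pH 6.0 was 122 FPM in N8 and 258 to 262 FPM in the others. Enpp2 in NRK-52E at pH 7.4 was 0.144 FPM in N6 and 0.0413 to 0.0471 FPM in the others. In NRK-49F, Cxcl10 at pH 7.4 had 50.4 FPM in N14 and 57.7 to 58.5 FPM in the others. Patz1 in NRK-52E at pH 7.4 was 0.283 FPM in N1 against 0.0826 to 0.0957 FPM, and Cdh17 in NRK-52E at pH 6.0 was 0.698 FPM in N8 against 0.201 to 0.263 FPM. In NRK-49F, Nfe2l2 at pH 7.4 reached 342 FPM in N14 where the others had 410 to 419 FPM, and Keap1 at pH 6.0 reached 116 FPM in N15 where the others had 99.7 to 101 FPM.

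The response to pH differed between the lines, by the test of the interaction, for 5428 genes. It did so for Nnmt (4.28), Plk2 (4.94), Mmd (-4.43) and C1qtnf1 (-4.06).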

How the results depend on the processing

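Counts moved when the test was stricter or fewer libraries were used. With glmTreat against 1, lower number, higher number and shared number in turn, all interaction calls (5428) were 1151, 3422, 1725 and 2548, positive calls (2841) 499, 1736, 954 and 1148, negative calls (2587) 652, 1686, 771 and 1400, opposite genes (626) 344, 324, 106 and 175, unequal genes (828) 152, 499, 68 and 181, and genes changed in 1 line (3785) 655, 2474, 1433 and 2039. Like responses (1941) were 517 with the higher and 915 with the shared number. FDR 0.05 gave 1148 opposite and 1617 unequal genes, and library totals 1829 positive calls, for which the cause was not tested.

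With each library left out, the ranges were 4708 to 5973 calls, 2016 to 2987 positive, 2271 to 2986 negative, 506 to 756 opposite, 631 to 1151 unequal, 3244 to 3872 in 1 line and 1709 to 2045 like. The highest value of each range was that without N8. By chi-square per degree of freedom, the most unlike libraries of a group were N4 and N8 (97.84), followed by N7 and N8 (75.94). The interactions of Nnmt were 4.12 to 4.37, of Plk2 4.76 to 5.14, of Mmd -4.63 to -4.16 and of C1qtnf1 -4.27 to -3.95. In all 16 fits 4026 of 5428 calls (74.2%) were kept. Over 164 genes picked by the naming rules, some of them not reported here, 4075 of 4425 results were the same, 350 weaker and 0 reversed. Genes named after their values were seen are not in this tally.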
